A study of Mus musculus with 40 samples.

Results

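CTCF peaks that overlapped peaks of the macrophage factor PU.1 and of the chromatin remodeller SMARCA5, but none of C/EBPb, made up 2446 of the 25280 CTCF peaks on chromosomes 1 to 19 and X, or 9.68% (95% Wilson interval 9.32 to 10.0). They were chosen by position: a CTCF peak had to share at least 1 bp with a PU.1 peak and at least 1 bp with a SMARCA5 peak, and no base with a C/EBPb peak. The share of CTCF peaks that met this rule ran from 7.19% on chromosome 12 to 11.0% on chromosome 11. They are called CTCF-PU.1-SMARCA5 peaks here. The overlap that chose them is a description and not a result.

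CTCF is a zinc-finger protein that binds a long motif, insulates neighbouring domains and stops the loop-extruding cohesin ring at loop anchors. PU.1 is an ETS-family factor and C/EBPb a leucine-zipper factor, and both open and mark the enhancers that give macrophages their identity. SMARCA5, also known as SNF2H, is the ATPase of the ISWI remodelling complexes, which slide and space nucleosomes; in other cell types it is known to be needed for CTCF to occupy many of its sites.

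The cells were primary mouse macrophages grown from bone marrow. They came from knockout mice, labelled Smarca5-/- and described as Smarca5 lox/lox with Csf1r-Cre, and from wild-type mice that carried Csf1r-Cre alone; both had 4-hydroxytamoxifen every day through the 7 days of differentiation. Csf1r-Cre acts in cells of the monocyte and macrophage lineage, so the deletion depends on the Cre being active in each cell. CTCF, PU.1 and C/EBPb were immunoprecipitated from untreated cells, with 2 libraries per genotype and factor, and SMARCA5 after micrococcal nuclease digestion, from cells left untreated or stimulated for 2 h with lipopolysaccharide at 10 ng/ml, with 2 libraries per genotype and condition.

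Each protein was represented by 1 consensus peak list for the whole series, on the mouse build mm39. The lists carried 0 columns for a single library, so knockout cannot be set against wild type here, nor stimulated against untreated cells, and the labels do not say whether knockout libraries entered the SMARCA5 list. The number of reads behind each list is unknown, and no expression data were used with which to check the cell type. A peak has a fold enrichment over the local background and a -log10 q, the peak caller's measure of how far the signal exceeds that background. The -log10 q grows with the number of reads as well as with the enrichment. SMARCA5 has a list of broad peaks without summits, so its values are not heights at a summit. Over the 2446 peaks Spearman's rho between SMARCA5 fold enrichment and width was -0.20. Both are the authors' values and were compared only within 1 list. Peaks are not replicates of animals or cultures, so no p-value is given. In its place a difference between groups of peaks is set against the 20 chromosomes, by the number of chromosomes on which it had the same direction, and 95% intervals cover counting error only.

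Most of these sites were separate places. The 2446 CTCF peaks met 2441 different PU.1 peaks, or 3.60% of the PU.1 list, and 2421 different SMARCA5 peaks, or 6.53% of that list. Only 10 CTCF peaks met 2 PU.1 peaks, 5 PU.1 peaks were met by 2 of the CTCF peaks, and 25 SMARCA5 peaks held 2 of them. PU.1 was paired with CTCF by the nearest summit, the position that the list gives as the summit of a peak. How a summit was set in a consensus list is not known, so it may not be the highest signal of any library. The PU.1 summit lay on the side of the lower coordinate in 1199 peaks and of the higher coordinate in 1241, and at the same base in 6. PU.1 thus lay on either side in nearly equal numbers; the direction of the CTCF motif was not known, since no genome sequence on mm39 was used.

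CTCF and PU.1 summits were close together but seldom on the same base; the rule itself bounds how far apart they can be, since the peaks must touch. The median distance at CTCF-PU.1-SMARCA5 peaks was 102 bp (95% interval 96 to 108), the middle 50% of distances ran from 50 to 259 bp, and the longest was 1478 bp. Summits lay within 50 bp of each other in 617 peaks, or 25.2%, against 27.9% of all CTCF peaks that overlapped PU.1. They lay within 100 bp in 49.3%, against 51.2% of all CTCF peaks that overlapped PU.1, and over 200 bp apart in 33.5%, against 31.4%. These shares were near the background, which includes the CTCF-PU.1-SMARCA5 peaks themselves, so the likeness is partly built in. In bins of 10 bp the most filled was 50 to 59 bp, with 162 peaks or 6.62%, and the bin of 0 to 9 bp held 81.

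The distance differed from that of both groups most like these peaks. CTCF-PU.1 peaks outside SMARCA5 peaks and without C/EBPb numbered 1242, and CTCF peaks with PU.1, C/EBPb and SMARCA5 numbered 1123. The median distance was 102 bp at CTCF-PU.1-SMARCA5 peaks and 62 bp at those outside SMARCA5 (95% interval 57 to 67), and it was longer with SMARCA5 on 20 of 20 chromosomes, by 10.5 to 83.5 bp. The excess of 40 bp (95% interval 7.81 bp either way) was smaller under some settings. It was 16.5 bp (15.7 bp either way) in the upper 50% of the PU.1 and SMARCA5 lists by fold enrichment, where the interval nearly reached no difference. In that setting, CTCF-PU.1 peaks that met only a SMARCA5 peak of the lower 50% were counted as outside SMARCA5. The excess was 21.5 bp with PU.1 peaks up to 500 bp wide, a limit chosen after seeing the data. Against peaks with all 4 proteins, where the median was 140 bp (132 to 158), it was shorter on 19 of 20 chromosomes; chromosome medians differed by -113 to 10.0 bp. The CTCF-PU.1-SMARCA5 peaks thus stood between the group with all 4 proteins and the group outside SMARCA5.

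The groups also differed in how many summits lay almost on top of each other. Summits lay within 25 bp in 10.4% of CTCF-PU.1-SMARCA5 peaks (95% Wilson interval 9.24 to 11.7), in 19.6% of those outside SMARCA5 (17.5 to 21.9) and in 7.39% of those with all 4 proteins. Within 50 bp the share was 25.2% at CTCF-PU.1-SMARCA5 peaks, 42.5% outside SMARCA5 and 16.8% with all 4 proteins. The most filled bin was 50 to 59 bp with SMARCA5 and without C/EBPb, 30 to 39 bp outside SMARCA5, where it held 10.2% of peaks, and 60 to 69 bp with all 4 proteins, where it held 4.90%. Each summit lay inside the other factor's peak in 68.7% of CTCF-PU.1-SMARCA5 peaks, in 79.3% of those outside SMARCA5 and in 62.8% of those with all 4 proteins, against 70.4% of all CTCF peaks that overlapped PU.1.

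**Figure D1:**
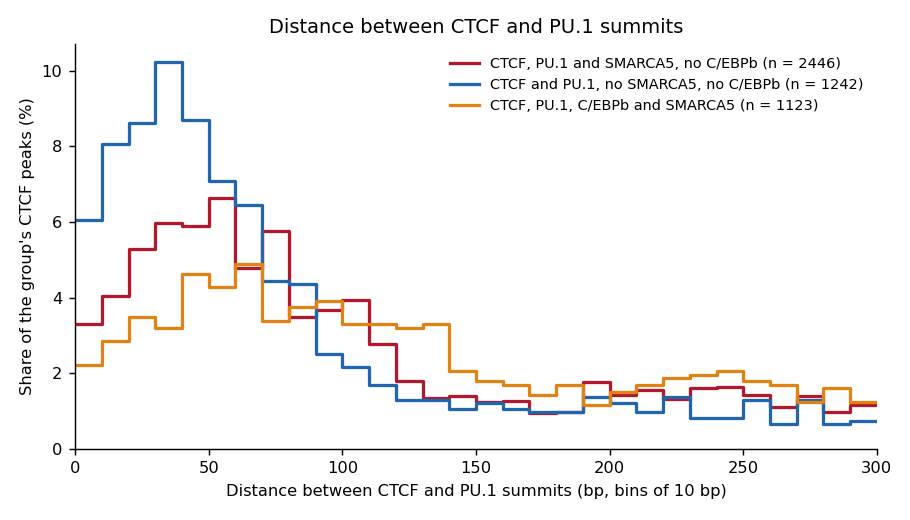
Share of CTCF peaks (%) by the distance between CTCF and PU.1 summits, in bins of 10 bp up to 300 bp, for the 2446 peaks with PU.1 and SMARCA5, the 1242 with PU.1 and neither SMARCA5 nor C/EBPb, and the 1123 with PU.1, C/EBPb and SMARCA5. The most filled bin is 50 to 59 bp for the first group, 30 to 39 bp for the second and 60 to 69 bp for the third.

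**Figure D2:**
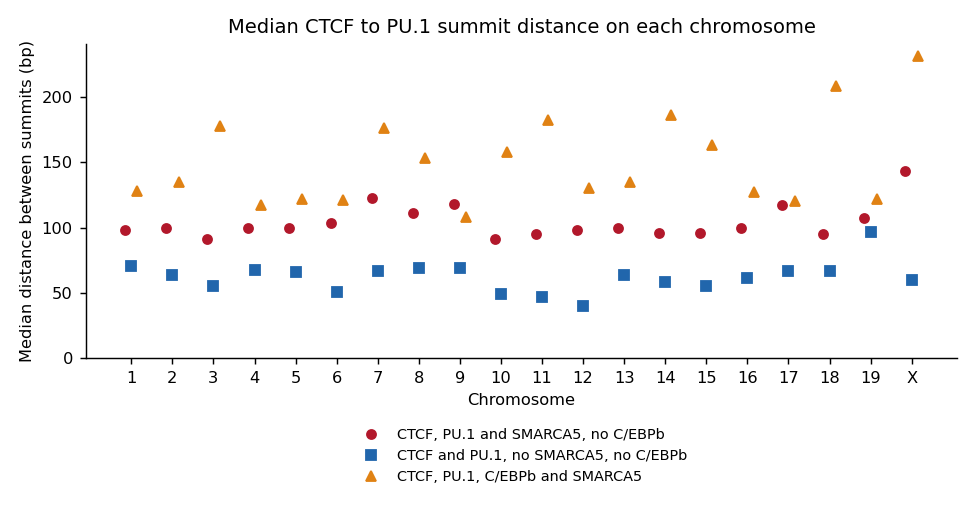
Median distance between CTCF and PU.1 summits (bp) on each of the 20 chromosomes for the same 3 groups, 1 point per group and chromosome. The medians with SMARCA5 and without C/EBPb run from 91.0 to 144 bp and are above those without SMARCA5 on 20 of 20 chromosomes.

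Read from the other side, SMARCA5 overlap was more frequent where the summits lay farther apart. Of the 3688 CTCF peaks with PU.1 and without C/EBPb, 66.3% overlapped SMARCA5. The share was 51.1% at 0 to 25 bp, 56.0% at 26 to 50 bp, 66.4% at 51 to 100 bp and 72.0% at 101 to 200 bp. It was 73.4% at 201 to 300 bp, 75.5% at 301 to 500 bp and 89.4% beyond 500 bp, where 126 of 141 peaks overlapped SMARCA5 (95% Wilson interval 83.2 to 93.4). With summits over 100 bp apart it was 74.9%, and with summits within 100 bp 59.4%. This difference of 15.5 percentage points had the same direction on 20 of 20 chromosomes, from 4.25 to 24.1 points. It was smaller, 5.40 points (95% interval 4.55 points either way), in the upper 50% of the PU.1 and SMARCA5 lists by fold enrichment. In that setting, peaks that met only a SMARCA5 peak of the lower 50% were counted as not overlapping SMARCA5.

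PU.1 peak width moved with the distance. Its median was 404 bp where summits lay within 25 bp and 799 bp where they lay beyond 500 bp, and the median width of the CTCF peaks was 418 bp within 25 bp and 442 bp beyond 500 bp. The pattern was therefore also read within 4 equal groups of these 3688 peaks. In the weakest group by PU.1 -log10 q, 65.6% of peaks with summits over 100 bp apart and 57.7% of those within 100 bp overlapped SMARCA5. In the strongest group the shares were 87.2% over 100 bp and 71.6% within 100 bp. In the narrowest group by PU.1 width they were 59.6% over 100 bp and 51.6% within 100 bp, and in the widest 86.2% over 100 bp and 79.7% within 100 bp. The share was higher for the wider-spaced peaks in all 4 groups by PU.1 -log10 q, by CTCF -log10 q, by PU.1 width and by CTCF width.

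**Figure D3:**
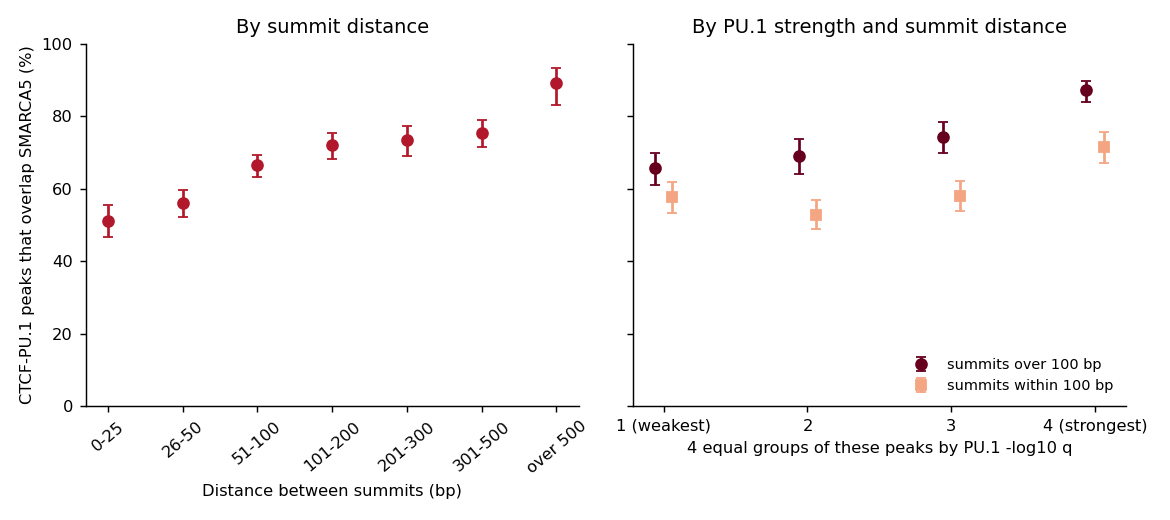
Share of CTCF-PU.1 peaks without C/EBPb that overlap a SMARCA5 peak (%), with 95% Wilson intervals, by distance between the summits (left) and by 4 equal groups of PU.1 -log10 q for summits over 100 bp and within 100 bp apart (right). The share runs from 51.1% at 0 to 25 bp to 89.4% beyond 500 bp, and in all 4 groups it is higher over 100 bp.

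The distances were also longer with SMARCA5 within each of the 4 groups by PU.1 width, with an excess that differed between groups. Widths still varied inside a group, from 139 to 376 bp in the narrowest and from 548 to 1745 bp in the widest. In the narrowest of the 4 groups by PU.1 width the median distance was 69 bp with SMARCA5 and 52 bp without it. In the next groups it was 77 bp with SMARCA5 and 56 bp without it, and 107 bp with it and 68 bp without it. In the widest group it was 221 bp with SMARCA5 and 174 bp without it. By PU.1 -log10 q, CTCF -log10 q and CTCF width too, the median was longer with SMARCA5 in all 4 groups. The order by PU.1 width did not hold throughout among summits over 100 bp apart. There the narrowest group had 205 bp with SMARCA5 and 210.5 bp without it, and the next 207 bp with it and 215 bp without it. Both wider groups kept the order, at 244.5 bp with SMARCA5 and 229.5 bp without it, and 341.5 bp with it and 309 bp without it.

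The CTCF peaks of these sites were among the stronger ones of the CTCF list. Their median -log10 q was 77.5 (95% interval 74.3 to 80.9), with the middle 50% from 43.2 to 126, against a median of 52.2 over all CTCF peaks. CTCF-PU.1 peaks outside SMARCA5 had a median of 64.0, CTCF-SMARCA5 peaks without PU.1 or C/EBPb, of which there were 5962, had 64.3, and CTCF peaks with none of the other proteins had 42.8. Peaks with both PU.1 and SMARCA5 were higher than CTCF-PU.1 peaks outside SMARCA5 on 20 of 20 chromosomes, and higher than CTCF-SMARCA5 peaks without PU.1 or C/EBPb on 19 of 20. Peaks with all 4 proteins had 74.1, and here the direction was split, with the CTCF-PU.1-SMARCA5 peaks higher on 13 chromosomes and lower on 7.

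Fold enrichment separated the same groups less. The median CTCF fold enrichment was 13.3 at CTCF-PU.1-SMARCA5 peaks, 12.8 at CTCF-PU.1 peaks outside SMARCA5 and 12.3 at CTCF-SMARCA5 peaks without PU.1 or C/EBPb. It was higher than outside SMARCA5 on only 13 of 20 chromosomes, and higher than at CTCF-SMARCA5 peaks without PU.1 or C/EBPb on 18. The strongest CTCF peaks were more frequent here than in either group with only 1 of the other proteins, but not than in the group with all 4 proteins. Of the CTCF-PU.1-SMARCA5 peaks, 645 or 26.4% were in the top 10% of the CTCF list by -log10 q, against 9.97% of all CTCF peaks, 25.6% of those with all 4 proteins, 15.5% of those with PU.1 outside SMARCA5 and 12.2% of those with SMARCA5 and neither PU.1 nor C/EBPb. By fold enrichment 22.4% were in the top 10%, against 23.3% with all 4 proteins, 15.5% with PU.1 outside SMARCA5 and 11.8% with SMARCA5 and neither PU.1 nor C/EBPb. Against the group with all 4 proteins the share was higher on 12 chromosomes and lower on 8 by -log10 q, and higher on 9 and lower on 10 by fold enrichment.

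PU.1 was of middling strength at these sites. The median PU.1 -log10 q was 45.6 at CTCF-PU.1-SMARCA5 peaks (95% interval 43.6 to 48.1), 32.7 at CTCF-PU.1 peaks outside SMARCA5 and 74.5 at peaks with all 4 proteins, while the whole PU.1 list had a median of 48.5. It was higher than outside SMARCA5 on 19 of 20 chromosomes and lower than with all 4 proteins on 20 of 20. PU.1 fold enrichment did not share the first of these differences: its median was 10.6 both at CTCF-PU.1-SMARCA5 peaks and outside SMARCA5, and it was higher with SMARCA5 on 7 chromosomes and lower on 13. With all 4 proteins it was 12.4. The PU.1 peaks had median widths of 473 bp at CTCF-PU.1-SMARCA5 peaks, 411.5 bp outside SMARCA5 and 558 bp with all 4 proteins, an order that held on 20 of 20 chromosomes for each pair with the CTCF-PU.1-SMARCA5 peaks.

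The pairings of strong and weak peaks at these sites were near those of all 5034 CTCF peaks with PU.1. These include the 2446 peaks themselves, so the likeness is partly built in. The pairings differed from those of both groups most like the CTCF-PU.1-SMARCA5 peaks. Only CTCF was in the upper 50% of its list by -log10 q in 37.9% of CTCF-PU.1-SMARCA5 peaks, 42.2% of those outside SMARCA5 and 24.8% of those with all 4 proteins, against 35.6% of all CTCF peaks with PU.1. Both factors were in the upper 50% in 31.0% of CTCF-PU.1-SMARCA5 peaks, 19.2% of those outside SMARCA5 and 39.6% of those with all 4 proteins, against 29.9% of all CTCF peaks with PU.1. Neither factor was in the upper 50% in 14.4% of CTCF-PU.1-SMARCA5 peaks, 25.8% of those outside SMARCA5 and 11.8% of those with all 4 proteins, against 16.9% of all CTCF peaks with PU.1. Only PU.1 was in it at the remaining sites, which were 16.8% of the CTCF-PU.1-SMARCA5 peaks, against 17.6% of all CTCF peaks with PU.1. Peaks with both factors strong were more frequent with SMARCA5 than outside it on 20 of 20 chromosomes, and peaks with both weak less frequent on 20 of 20. The PU.1 peak was in the top 10% of its list in 8.38% of CTCF-PU.1-SMARCA5 peaks, 2.66% of those outside SMARCA5 and 14.5% of those with all 4 proteins, against 8.40% of all CTCF peaks with PU.1.

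Across the 2446 peaks the strengths of the factors were nearly unrelated. Spearman's rho between CTCF and PU.1 fold enrichment was 0.016, and between CTCF and PU.1 -log10 q it was -0.079. These are descriptions over peaks, which share the same libraries.

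**Figure D4:**
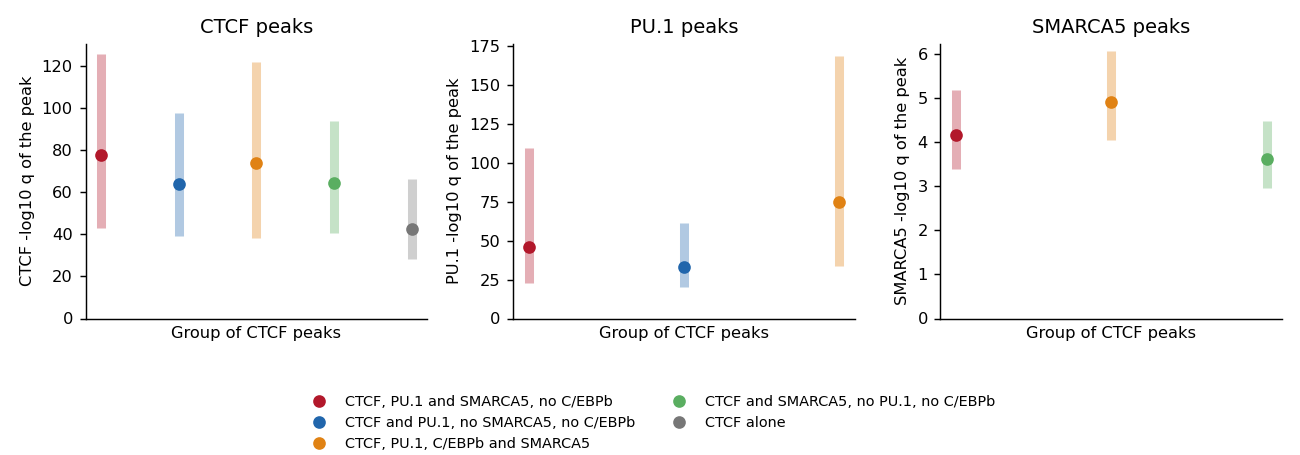
The authors' -log10 q of the CTCF peaks (left), of the PU.1 peaks paired with them (middle) and of the SMARCA5 peaks they meet (right), with points at the median and bars over the middle 50% of each group of CTCF peaks. CTCF -log10 q has a median of 77.5 at CTCF-PU.1-SMARCA5 peaks and 64.0 at those outside SMARCA5, and PU.1 -log10 q has 45.6 at CTCF-PU.1-SMARCA5 peaks and 74.5 with all 4 proteins.

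Spacing and strength were weakly related within the group. Spearman's rho of the distance was -0.13 with CTCF -log10 q, 0.096 with PU.1 -log10 q and 0.20 with SMARCA5 -log10 q, as descriptions over the 2446 peaks. The 1239 CTCF-PU.1-SMARCA5 peaks with summits over 100 bp apart had a median CTCF -log10 q of 68.6, and the 1207 with summits within 100 bp had 85.8; the wider-spaced ones were lower on 19 of 20 chromosomes. PU.1 ran the other way, with a median -log10 q of 52.4 over 100 bp and 41.5 within 100 bp, higher on 16 chromosomes, and its peaks were 519 bp wide over 100 bp and 433 bp within. SMARCA5 -log10 q was 4.40 over 100 bp and 3.85 within 100 bp, higher on 20 of 20 chromosomes. SMARCA5 fold enrichment did not separate them, at 2.07 for both, with 10 chromosomes in each direction. The strongest CTCF peaks were most frequent at 51 to 100 bp, where 31.5% were in the top 10% of the list by -log10 q. The share was 21.3% at 0 to 25 bp, 27.5% at 26 to 50 bp and 27.4% at 101 to 200 bp. It was 24.1% at 201 to 300 bp, 21.9% at 301 to 500 bp and 24.6% beyond 500 bp.

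The distance to C/EBPb is touched by the rule, which kept C/EBPb off the CTCF peak and so off a PU.1 summit close to it, but not off one farther away; the following values are a description. A C/EBPb peak lay elsewhere in the same SMARCA5 peak at 18.9% of CTCF-PU.1-SMARCA5 peaks with summits within 25 bp, at 18.3% at 51 to 100 bp, at 22.7% at 101 to 200 bp, at 26.2% at 301 to 500 bp and at 36.5% beyond 500 bp. The nearest C/EBPb summit lay at a median of 7923 bp over 100 bp and 11671 bp within 100 bp, and 120 of the 2446 peaks had C/EBPb at the paired PU.1 peak outside the CTCF peak. The width of the SMARCA5 peaks followed the distance less evenly, with medians of 2736 bp within 25 bp, 2375 bp at 26 to 50 bp, 2838 bp at 101 to 200 bp and 3309 bp beyond 500 bp; over 100 bp they were 2829 bp wide and within 100 bp 2489 bp, wider on 14 of 20 chromosomes. The place of the CTCF summit in the SMARCA5 peak, from 0 at its centre to 1 at its edge, did not separate wide from close spacing, with medians of 0.405 over 100 bp and 0.421 within 100 bp and 10 chromosomes in each direction. The PU.1 summit was nearer to the centre at wide spacing, at 0.374 over 100 bp and 0.422 within 100 bp, on 16 of 20 chromosomes.

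SMARCA5 peaks at these sites were broad. Their median width was 2681.5 bp (95% interval 2584 to 2765), against 2963 bp for those with all 4 proteins and 2514.5 bp for those at CTCF without PU.1 or C/EBPb. They were narrower than with all 4 proteins on 19 of 20 chromosomes and wider than without PU.1 or C/EBPb on 17. Their median -log10 q of 4.16 also lay between 4.91 with all 4 proteins, where they were lower on 19 chromosomes, and 3.62 without PU.1 or C/EBPb, where they were higher on 20. Fold enrichment differed little and did not follow this order, with medians of 2.07 at CTCF-PU.1-SMARCA5 peaks, 2.06 with all 4 proteins and 2.09 without PU.1 or C/EBPb. It was higher than with all 4 proteins on 14 chromosomes and lower than without PU.1 or C/EBPb on 19, opposite in both cases to the -log10 q.

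CTCF sat nearer to the middle of the SMARCA5 peak where PU.1 overlapped the CTCF peak than where neither PU.1 nor C/EBPb did. At 44.7% of the latter sites a PU.1 peak lay elsewhere in the SMARCA5 peak. The CTCF summit lay in the inner 50% of the SMARCA5 peak in 59.5% of CTCF-PU.1-SMARCA5 peaks (95% Wilson interval 57.5 to 61.4), in 65.9% of those with all 4 proteins and in 49.9% of those without PU.1 or C/EBPb, against 54.4% of all CTCF peaks with SMARCA5. It was above the share without PU.1 or C/EBPb on 18 of 20 chromosomes. Against peaks with all 4 proteins it was lower on 13 chromosomes and higher on 7. The whole CTCF peak lay inside the SMARCA5 peak in 88.2% of CTCF-PU.1-SMARCA5 peaks, 92.3% of those with all 4 proteins and 81.1% of those without PU.1 or C/EBPb, against 84.4% of all CTCF peaks with SMARCA5. The PU.1 summit lay in the inner 50% in 62.6% of CTCF-PU.1-SMARCA5 peaks and 69.9% of those with all 4 proteins. It was the nearer of the pair to the SMARCA5 centre in 54.2% of CTCF-PU.1-SMARCA5 peaks (52.2 to 56.1), and from 43.9% to 63.0% on single chromosomes.

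The SMARCA5 peaks leaned to the PU.1 side. With each site turned so that PU.1 lay on the positive side of CTCF, positions 1000 bp from the CTCF summit were inside a SMARCA5 peak at 63.9% of the CTCF-PU.1-SMARCA5 sites on the PU.1 side and at 49.7% on the other side, with the PU.1 side higher on 20 of 20 chromosomes. At 2000 bp the shares were 32.2% on the PU.1 side and 24.5% on the other side, on 19 chromosomes, and at 3000 bp 19.5% on the PU.1 side and 15.7% on the other side, on 16. Peaks with all 4 proteins leaned by as much at 1000 bp, with 71.7% on the PU.1 side and 57.5% on the other side. The lean is thus not particular to sites without C/EBPb. The 6 sites with both summits on the same base were left out of these profiles.

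C/EBPb was absent from the CTCF peaks by the rule, but not from their surroundings. At 750 bp from the CTCF summit, 4.59% of positions lay inside a C/EBPb peak on the PU.1 side and 2.79% on the other side. At CTCF-PU.1 peaks outside SMARCA5 the same positions gave 0.726% on the PU.1 side and 0.646% on the other side. C/EBPb was thus more frequent near the sites with SMARCA5, and on both sides of them.

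**Figure D5:**
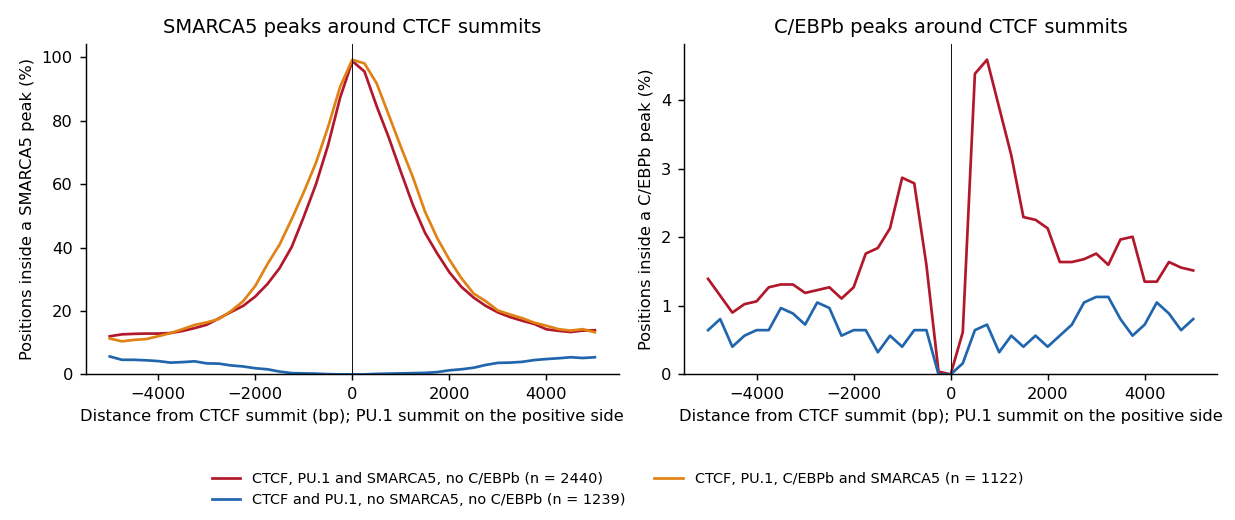
Share of positions (%) inside a SMARCA5 peak (left) and inside a C/EBPb peak (right), every 250 bp to 5000 bp from the CTCF summit, with the PU.1 summit on the positive side. At 1000 bp SMARCA5 covers 63.9% of the CTCF-PU.1-SMARCA5 sites on the PU.1 side and 49.7% on the other side, and at 750 bp C/EBPb covers 4.59% on the PU.1 side and 2.79% on the other side.

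Other peaks in the neighbourhood were counted next. A C/EBPb peak lay in the same SMARCA5 peak at 536 CTCF-PU.1-SMARCA5 peaks, or 21.9%, and at 26.5% of CTCF-SMARCA5 peaks without PU.1 or C/EBPb, against 37.6% of all CTCF peaks with SMARCA5, a share that includes those that overlap C/EBPb themselves. The difference between the first groups had the same direction on 16 of 20 chromosomes. The PU.1 peak paired with CTCF met a C/EBPb peak outside the CTCF peak at 120 CTCF-PU.1-SMARCA5 peaks, or 4.91%, and at 0.805% of those outside SMARCA5. The share with C/EBPb at the PU.1 peak was 28.8% over all CTCF peaks with PU.1, which again include those that overlap C/EBPb themselves. C/EBPb thus shared the SMARCA5 peak at a minority of these sites.

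The nearest C/EBPb summit lay at a median of 9843 bp from CTCF-PU.1-SMARCA5 peaks, against 17876.5 bp outside SMARCA5, 8573.5 bp at CTCF-SMARCA5 peaks without PU.1 or C/EBPb and 24851 bp at CTCF peaks alone. It was nearer than outside SMARCA5 on 20 of 20 chromosomes. A C/EBPb summit lay within 5000 bp of 33.4% of CTCF-PU.1-SMARCA5 peaks, 13.8% of those outside SMARCA5 and 37.7% of CTCF-SMARCA5 peaks without PU.1 or C/EBPb. Over all CTCF peaks, which include those that overlap C/EBPb themselves, the share was 28.3%.

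Further PU.1 and CTCF peaks were counted likewise. A further PU.1 peak lay in the same SMARCA5 peak at 26.5% of CTCF-PU.1-SMARCA5 peaks, 25.5% of those with all 4 proteins and 44.7% of CTCF-SMARCA5 peaks without PU.1 or C/EBPb, against 38.5% of all CTCF peaks with SMARCA5. By construction, a CTCF-SMARCA5 peak without PU.1 can share its SMARCA5 peak with PU.1 only in this way. The nearest PU.1 summit beyond the pair lay at a median of 5809.5 bp at CTCF-PU.1-SMARCA5 peaks and 9009 bp outside SMARCA5, and was nearer with SMARCA5 on 20 of 20 chromosomes. Another CTCF summit lay within 5000 bp of 19.8% of CTCF-PU.1-SMARCA5 peaks, 15.3% of those outside SMARCA5, 13.8% of those with all 4 proteins and 23.3% of CTCF-SMARCA5 peaks without PU.1 or C/EBPb, against 17.0% of all CTCF peaks.

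Single sites show how varied the group was. The highest CTCF fold enrichment, 31.1, was at chr5:129801799-129802356, where the PU.1 peak had 14.1 and its summit lay 278 bp away. The site next in rank, at chr8:22682549-22683142, had 28.9 for CTCF and 11.7 for PU.1 at 352 bp, in a SMARCA5 peak of only 1.85 that also held a C/EBPb peak. The next sites, at chr14:73762096-73762580 and chr14:73747118-73747578, were near neighbours on 1 chromosome, each in a SMARCA5 peak of its own, with CTCF fold enrichments of 28.7 and 27.8. The PU.1 peaks at these 4 sites stood at percentiles 26.3 to 74.9 of the PU.1 list by fold enrichment, and the SMARCA5 peaks at percentiles 3.02 to 65.3 of theirs, so none of the 4 was in the top 10% of either.

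The highest PU.1 fold enrichment, 33.9, lay over a weak CTCF peak of 8.23 at chr11:24134880-24135221, with summits 93 bp apart and a SMARCA5 fold enrichment of 2.61. At chr12:55362033-55362428, PU.1 had 33.0 and CTCF 11.8, with summits 32 bp apart. The sites that ranked highest in both lists were chr5:114805346-114806018, with 25.4 for CTCF and 31.1 for PU.1 at 114 bp, and chr16:4680668-4681170, with 21.9 for CTCF and 29.9 for PU.1 at 35 bp. Next came chr15:79127289-79127809, with 23.9 for CTCF and 29.1 for PU.1 at 53 bp. Their SMARCA5 fold enrichments were 2.21, 2.08 and 2.02, at percentiles 34.4 to 76.1 of the SMARCA5 list.

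The SMARCA5 peak of highest fold enrichment in the whole list, 3.54, belonged to the group. It lay over the CTCF peak at chr2:142453154-142453531, which had a CTCF fold enrichment of 13.7 and a PU.1 peak of 25.2 with its summit 95 bp away, and it was only 879 bp wide. Another CTCF peak on the same chromosome, at chr2:160012905-160013282, had a SMARCA5 fold enrichment of 3.30 and 28.1 for PU.1 at 146 bp. On chromosome X, the CTCF peak at chrX:104113798-104114130 had a SMARCA5 fold enrichment of 3.28 with 9.00 for CTCF and 13.3 for PU.1, and the one at chrX:167422685-167423157 had 2.98 with 14.6 for CTCF and only 5.58 for PU.1, at 6 bp. Among the 5 sites of highest SMARCA5 fold enrichment, PU.1 was weak only at chrX:167422685-167423157, at percentile 5.46 of the PU.1 list by fold enrichment. At the others it stood at percentiles 61.6 to 97.7. The widest SMARCA5 peak of the group spanned 38240 bp at chr11:119280788-119319027 with a fold enrichment of 2.08. It held 3 PU.1 peaks, 2 CTCF peaks and 0 C/EBPb peaks. The one next in width, 18023 bp at chr16:23796474-23814496, held 4 CTCF, 3 PU.1 and 4 C/EBPb peaks, and its CTCF-PU.1 site at chr16:23802975-23803262 had a weak CTCF peak of 6.42. Which genes lie at these places is not given here, since the gene table at hand is on another build.

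Few sites lay at the very edge of the rule, within 20 bp of it for PU.1 or C/EBPb or 100 bp for SMARCA5. Stricter rules removed more of the 2446 peaks. They left 2045 with 50% of the shorter peak shared and 1971 with the CTCF summit inside both other peaks. With no C/EBPb peak within 1000 bp, 2103 were left. A total of 36 CTCF-PU.1-SMARCA5 peaks shared 20 bp or less with PU.1, with a median summit distance of 435.5 bp and a median CTCF -log10 q of 65.1. A total of 33 CTCF peaks that were not chosen had a PU.1 peak within 20 bp without touching it, with values of 438 bp and 45.5. Only 3 of the chosen peaks shared 100 bp or less with SMARCA5. A C/EBPb peak came within 20 bp of 10 chosen peaks without touching, and 20 peaks were left out for sharing 20 bp or less with C/EBPb.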

How the data were processed

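Chromatin immunoprecipitation was deposited as 4 consensus peak lists. The submitters' processing notes name MACS2 2.2.7.1, STAR 2.7.9a, deepTools 3.5.1 and Picard 2.27.4, with mm39. What each tool did, how replicates were merged and how a consensus peak or summit was set is not given in the sources used here. The deposited score was not used in a comparison. The deposited fold enrichment was read as a ratio over local background and the deposited -log10 q as MACS2 writes them; the deposited summit offset was added to the start.

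Overlaps, distances, Wilson intervals and order-statistic intervals of medians were computed with Python 3.11.15, NumPy 2.4.6, pandas 2.3.3 and SciPy 1.17.1, and plots drawn with matplotlib 3.10.9. The overlap and distance steps were tested on simulated peaks. Groups were compared on 20 chromosomes. Alternatives changed the overlap, the list threshold, the C/EBPb exclusion, the SMARCA5 and PU.1 widths, the pairing and the position. Depth per library is unknown. Replicates have no columns, so their spread was not measured. Named regions are the 5 highest by CTCF, PU.1, both, or SMARCA5 fold enrichment, or by SMARCA5 width; only some are printed, and chromosome 18 was left out. Members, groups and measures were chosen with earlier results of these data known. Motifs and gene starts need mm39 and were not run. H3K27ac was not analysed here.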

Additional observations from a re-analysis of the deposited data

How the results depend on the processing

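Of 71 values under alternatives, 45 stayed within the 95% interval of the reported value or, for the 5 counts among them, within 1.5 times of it, and 26 moved. Only the differences could change direction, since the other values cannot be negative, and 0 did. The cause of the moves was not tested, save that stricter rules leave fewer peaks or narrower ones by construction. Some settings left out SMARCA5 peaks or asked for more overlap. CTCF-PU.1 peaks that then no longer met SMARCA5 were counted as outside SMARCA5. Where 50% of the shorter peak had to be shared, the median summit distance was 81 bp, its excess over peaks outside SMARCA5 was 29 bp and CTCF -log10 q was 82.1. With the CTCF summit inside both other peaks these were 77 bp, 26 bp and 81.2. In the upper 50% of the PU.1 and SMARCA5 lists by fold enrichment 540 peaks were left, and the 95% intervals were wide. The excess was 16.5 bp (15.7 bp either way) and the difference from peaks with all 4 proteins was -56.5 bp (39.7 bp either way). The difference in SMARCA5 overlap by spacing was 5.40 points (4.55 points either way). There PU.1 -log10 q was 105, SMARCA5 width 2269.5 bp, the inner 50% share 61.9% and the share with C/EBPb in the same SMARCA5 peak 13.5%. With no C/EBPb within 1000 bp the width was 2548 bp and that share 9.80%. With none in the same SMARCA5 peak CTCF -log10 q was 81.0 and the width 2327 bp; the share is then 0 by construction. Without SMARCA5 peaks over 5 kb the excess was 31 bp, the difference by spacing 10.6 points, the width 2362.5 bp and the C/EBPb share 16.3%. Of the alternatives chosen after seeing the data, peak midpoints gave a median distance of 117.5 bp, and PU.1 peaks up to 500 bp wide gave 77 bp, an excess of 21.5 bp and a difference by spacing of 11.4 points. Alternatives for motif windows and gene starts, which need mm39, were not run here. No paired analysis was possible because 0 columns give a replicate. With depth unknown, weak sites may be missing from any list.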
